A study of Mus musculus with 12 samples.

Results

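The glutathione and thioredoxin systems are the main thiol-based defences of a cell against peroxides. Glutathione is made from cysteine by glutamate-cysteine ligase (Gclc and Gclm) and glutathione synthetase (Gss), used by peroxidases (Gpx), transferases (Gst, Mgst) and glutaredoxins (Glrx), and regenerated by glutathione reductase (Gsr). Superoxide dismutases (Sod) and catalase (Cat) remove superoxide and hydrogen peroxide, and many of these genes are induced by the transcription factor NRF2 (Nfe2l2), which KEAP1 holds back in unstressed cells. In the vessel wall these enzymes are known for limiting oxidant damage and for preserving nitric oxide. The genes were taken by symbol: the Gst, Mgst, Gpx, Prdx, Txn, Glrx and Sod families together with Gclc, Gclm, Gsr, Gss, Nqo1, Hmox1, Cat, Nfe2l2, Keap1 and Cdo1. This gave 57 of the 11015 genes measured, each read from its brightest probe set. Prdx1 and Glrx3 were left out because their probe sets also carried another gene's symbol.

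The cells were cultured endothelial cells isolated from the aorta of mice aged 4 weeks, and their RNA was measured on Affymetrix expression arrays. Cells labelled Ets1/2 null (Ets1-/-; Ets2fl/fl + lentiviral-egfp-Cre) gave 2 arrays. Ets1 null cells (Ets1-/-; Ets2fl/fl + lentiviral-egfp), Ets2 null cells (Ets1+/+; Ets2fl/fl + lentiviral-egfp-Cre) and wild-type cells (Ets1+/+; Ets2+/+ + lentiviral-egfp) gave 3 arrays each. All groups had received a lentivirus. Cre, the recombinase that deletes floxed alleles, was present in both groups labelled as lacking Ets2, so its effects and those of Ets2 loss cannot be told apart. Wild-type cells lacked the floxed Ets2 alleles that all null groups carried. In every comparison with wild type, these alleles and the loss of a factor cannot be told apart. The short descriptions of the single nulls name the lost gene as wild type; the titles and genotypes were followed. The titles call the arrays biological replicates without naming animals, so the p-values speak only of the spread among these arrays, which may be technical. In such bulk RNA, fewer cells of a type and less RNA per cell cannot be told apart.

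The deposited log2 values had a median over genes of 8.69 and 8.73 in the arrays labelled Ets1/2 null, against 9.37 to 9.50 in the other 9 arrays. Each array was therefore centred on its own median, and every value below is log2 minus that median unless called deposited, with 0 marking the array's middle gene. Each unit is a factor of 2 in intensity, and levels of different genes cannot be compared, since each probe set has its own response. The brightest Ets1 probe set read 1.29 and 1.60 in the arrays labelled Ets1/2 null, -1.16, -0.70 and -0.32 in Ets1 null cells, 0.09, 0.16 and 0.43 in Ets2 null cells and 0.89, 0.41 and 0.56 in wild type. It therefore went against the label of the 2 double-null arrays, which are called by their label throughout. Whether this probe set lies in the deleted part of Ets1 was not determined. The brightest Ets2 probe set read 2.28 and 0.94 in the arrays labelled Ets1/2 null and 0.22, -0.05 and 0.68 in Ets2 null cells. It read 0.81, 0.91 and 1.05 in Ets1 null cells and 0.35, 0.58 and 1.21 in wild type. It too went against the double-null label, at 1.33 above Ets2 null (limma, adjusted p = 0.0325). Ets2 null overlapped wild type, at -0.43 (adjusted p = 0.544). Whether it lies in the deleted part of Ets2 was not determined either. Of 20 endothelial markers, 5 were among the genes analysed. Their mean lay between -1.57 and -1.23 in the arrays labelled Ets1/2 null, -1.83 and -1.58 in Ets1 null cells, -0.90 and -0.21 in Ets2 null cells and -1.37 and 0.07 in wild type. The Y-linked gene Eif2s3y was above 6 as deposited, marking RNA of males, in the 3 Ets2 null arrays and in array 1 of wild type, and below it in the other 7. For every gene below, a difference of Ets2 null from another group can therefore hardly be told apart from one of sex.

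Each single null was compared with wild type, from which it also differs in the floxed alleles and, for Ets2 null, in Cre and sex. In Ets2 null cells 1 of the 57 genes was called, Cdo1, the cysteine dioxygenase that oxidises cysteine and so diverts it from glutathione synthesis. It was higher than in wild type, and 0.436% of all genes were called in that comparison, 0.236% of all genes being higher (a call is a limma p under 0.05 after Benjamini-Hochberg adjustment over all genes). In Ets1 null cells limma called 0 of the 57, against 0.00908% of all genes, and 4 members had an unadjusted p under 0.05 (8.71% of all genes did). In Ets2 null cells 12 of the 57 had an unadjusted p below that level, beside 18.9% of all genes. Weighting arrays by quality called 1 member in Ets1 null cells, Cdo1 (1.42% of all genes), and 6 in Ets2 null (9.85%). Against wild type, the members' differences had a median of -0.05 in Ets1 null (all genes -0.03) and of 0.03 in Ets2 null (all genes -0.01). These comparisons share the wild-type arrays.

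**Figure D1:**
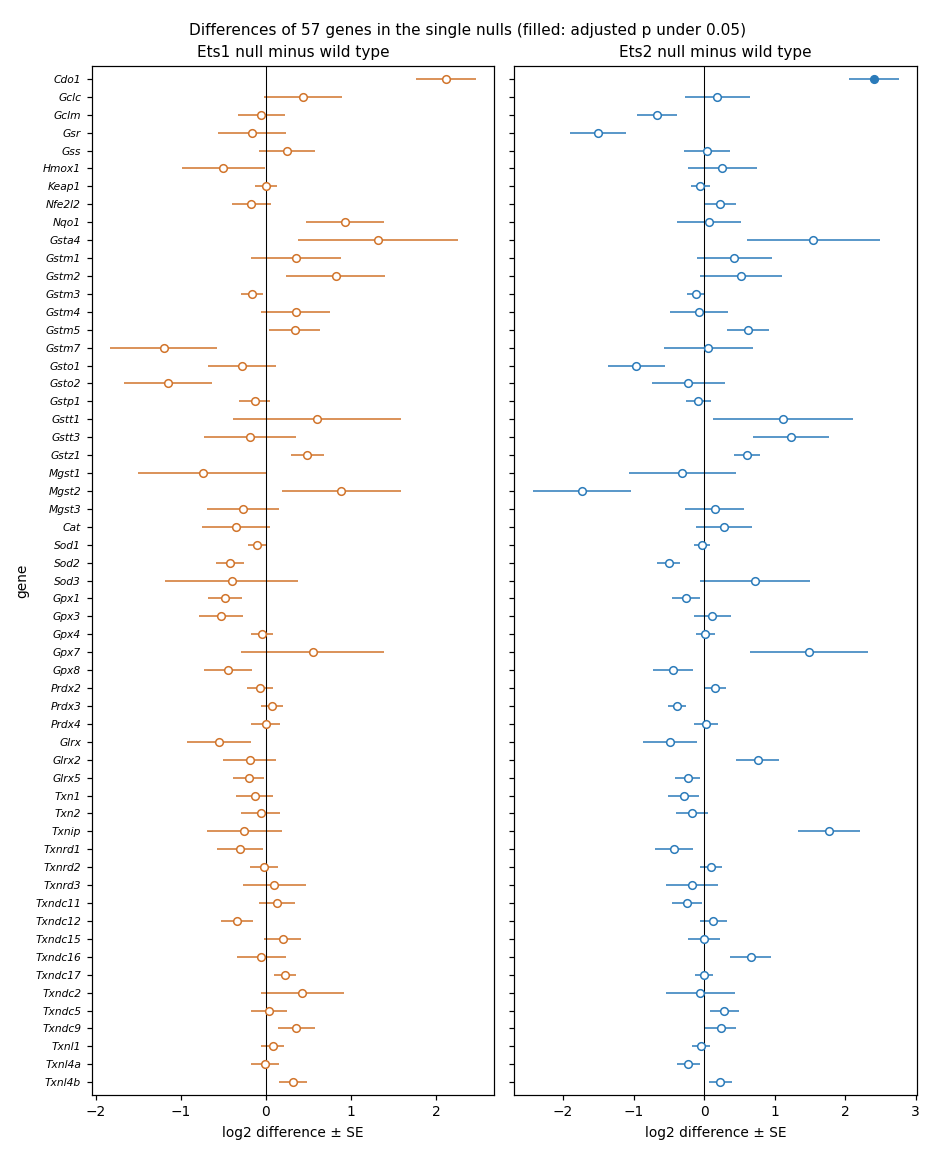
Difference of each of the 57 genes in Ets1 null (left) and Ets2 null (right) cells against wild type, in log2 units with limma's standard error (n = 3 and 3); filled points have an adjusted p under 0.05. Cdo1 in Ets2 null, at 2.41, is the one filled point, and its difference in Ets1 null is 2.12.

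In the arrays labelled Ets1/2 null, 13 of the 57 genes were called against wild type, 7 higher and 6 lower. That is 22.8% of the members, beside 28.3% of all genes. Against Ets1 null 12 were called, 5 higher and 7 lower, beside 28.7% of all genes. Against Ets2 null 12 were called, 6 higher and 6 lower, beside 30.3% of all genes. The members were thus called no more often than genes in general in each of these comparisons, which share the 2 double-null arrays. In the deposited values, which keep the lower level of these arrays, 24 members were called against wild type, beside 45.9% of all genes. Of these 1 was higher (2.32% of all genes) and 23 lower (43.6%). Against Ets1 null 21 were called as deposited, all lower, beside 44.5% of all genes (1.72% higher and 42.8% lower). Against Ets2 null 22 were, all lower, beside 46.3% of all genes (43.3% lower). Calls made in both scalings numbered 7 against wild type (14.3% of all genes, 2.32% higher and 12% lower), 7 against Ets1 null (13.0%) and 6 against Ets2 null (16.2%). Leaving out each of the 11 arrays in turn, the calls against wild type were made every time for 6 of the 13, Cdo1, Gpx4, Gsr, Gstm3, Sod1 and Txndc17. Gss, Prdx4 and Txnl1 were called in 8, 8 and 7 of these fits, Gss and Txnl1 in neither that left out a double-null array, and Txndc16 was lost without array 1 labelled Ets1/2 null. Txndc15 and Txndc2 were called in only 5 and 1 of the 11 fits. The 7 calls against wild type made in both scalings were Cdo1, which rose, and Gpx4, Gsr, Gss, Gstm3, Mgst3 and Sod1, which fell. All 1317 genes called lower after centring were called lower as deposited too, beside 256 of the 1801 called higher. Keeping the call as deposited thus adds no support to a fall.

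A further limit concerns probe sets. Of the 13 members called against wild type in these arrays, 7 had a second probe set, which had the same sign in 3 and was called in 1, Txndc17. Gpx4, Gsr, Gss and Sod1 each had a second probe set with a difference above 0, of 0.07, 0.51, 0.66 and 0.21. Over all 27 members with several probe sets the second had the sign of the brightest in 17; the number was 22 for Ets1 null and 19 for Ets2 null, each compared with wild type.

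**Figure D2:**
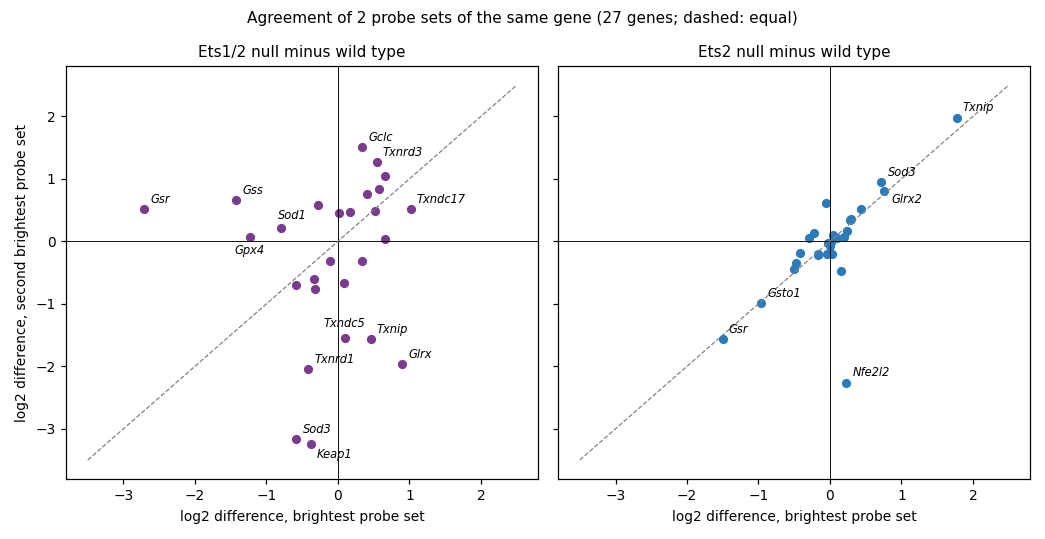
Log2 difference from wild type of the brightest (x axis) and the second brightest (y axis) probe set for the 27 genes that have several, in the arrays labelled Ets1/2 null (left) and in Ets2 null (right); the dashed line marks equal values and the named genes lie far from 0 or from that line. On the left Gsr has -2.71 and 0.51 and Keap1 -0.38 and -3.24, while on the right Gsr has -1.50 and -1.56 and Txnip 1.77 and 1.98.

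The first 5 genes handle cysteine and the making and recycling of glutathione. Cdo1, on chromosome 18 and with 1 probe set, read 1.90 and 1.85 in the arrays labelled Ets1/2 null, 2.22, 2.21 and 0.81 in Ets1 null cells, 1.95, 2.08 and 2.09 in Ets2 null cells and -0.75, -0.20 and -0.17 in wild type. All 8 arrays of the null groups lay above all 3 wild-type arrays, and Ets1 null array 3 stood about midway. The same split parts cells with and without the floxed Ets2 alleles, so these and the lost factors cannot be told apart. Against wild type Cdo1 rose by 2.41 ± 0.35 in Ets2 null (SE, n = 3 and 3, adjusted p = 0.0378) and by 2.24 ± 0.39 in the arrays labelled Ets1/2 null (n = 2 and 3, adjusted p = 0.0039). In Ets1 null the difference was 2.12 ± 0.35 and was not called (adjusted p = 0.138); without Ets1 null array 3 it was 2.59 with an adjusted p of 0.00402. The call in Ets2 null was made in 4 of the 11 fits that leave out 1 array, with differences of 2.22 to 2.51 and adjusted p-values of 0.00585 to 0.11. It was lost when any 1 Ets2 null array, any 1 array labelled Ets1/2 null or wild-type array 1 or 2 was left out. The call in the arrays labelled Ets1/2 null was made in all 11.

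The male arrays bear on Cdo1, as on every other Ets2 null difference, since all Ets2 null arrays were male. For Cdo1 the male wild-type array had the lowest value, -0.75, and the female wild-type arrays had -0.20 and -0.17. As 1 array, it cannot part sex from Ets2 loss. Fitted with a male term, the Ets2 null difference was 2.79 ± 0.49 (adjusted p = 0.205). The interaction, which subtracts the Ets2 loss effect seen with Ets1 present from that seen in its absence, was -2.29 ± 0.52 for Cdo1 (adjusted p = 0.0219). The arrays labelled Ets1/2 null had a difference of 0.13 ± 0.39 from Ets1 null and -0.17 ± 0.39 from Ets2 null, neither called (adjusted p = 0.834 and 0.776).

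Gsr reduces oxidised glutathione with NADPH. Its brightest probe set read -1.98 and -0.56 in the arrays labelled Ets1/2 null, 1.56, 1.10 and 1.20 in Ets1 null cells, 0.44, 0.08 and -0.69 in Ets2 null cells and 1.13, 1.35 and 1.85 in wild type. Every Ets2 null array lay below every wild-type array, but the difference of -1.50 ± 0.40 was not called (adjusted p = 0.111). The second probe set gave -0.28, -0.62 and -1.46 in Ets2 null cells and 0.45, 0.57 and 1.36 in wild type, also without overlap, with a difference of -1.56 (adjusted p = 0.079). With arrays weighted by quality Gsr was called in Ets2 null, at -1.17 ± 0.25 (adjusted p = 0.0245). In the arrays labelled Ets1/2 null the brightest probe set fell by 2.71 ± 0.45 (adjusted p = 0.00312), whereas the second read 0.52 and 1.69, within and above the wild-type span.

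Gss, which adds glycine in the last step of glutathione synthesis, read -0.95 and -0.91 in the arrays labelled Ets1/2 null, 0.93, 0.80 and 0.48 in Ets1 null cells, 0.95, 0.60 and 0.04 in Ets2 null cells and -0.17, 0.51 and 1.13 in wild type. The 2 double-null arrays were the lowest of all, and the other 3 groups overlapped. The fall from wild type was -1.42 ± 0.37 (adjusted p = 0.0202), but the second Gss probe set read 0.45 and 0.17 there, within the wild-type span of -0.83 to 0.58. Gclc, the catalytic subunit of the rate-limiting ligase, read -0.24 and 0.86 in the arrays labelled Ets1/2 null, 1.43, -0.11 and -0.10 in Ets1 null cells, 0.08, 0.30 and 0.10 in Ets2 null cells and 0.24, -0.68 and 0.34 in wild type. All groups overlapped wild type, and Ets1 null array 1 stood highest. The second Gclc probe set read 0.36 and 1.01 in the arrays labelled Ets1/2 null and -0.50, -1.14 and -0.26 in wild type, without overlap and with a called difference of 1.51 (adjusted p = 0.0243), against 0.34 in the brightest. Gclm, the modifier subunit, read 0.86 and 1.08 in the arrays labelled Ets1/2 null, 1.05, 1.09 and 1.14 in Ets1 null cells, 0.80, 0.83 and -0.22 in Ets2 null cells and 1.25, 0.81 and 1.36 in wild type. Its lowest value was that of Ets2 null array 3, and the Ets2 null difference from wild type was -0.67 ± 0.28 (adjusted p = 0.235).

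Gclm is a textbook NRF2 target, and its promoter is shown because it holds the core of the antioxidant response element, the site that NRF2 and small Maf proteins bind. The sequence is RefSeq's for GRCm38.p6, chr3:122245307-122245606, plus strand, from 250 bases before to 50 after the start of the gene. Capitals mark the match to TGACNNNGC, which lies on the other strand, 134 bases before the start.
Gclm promoter: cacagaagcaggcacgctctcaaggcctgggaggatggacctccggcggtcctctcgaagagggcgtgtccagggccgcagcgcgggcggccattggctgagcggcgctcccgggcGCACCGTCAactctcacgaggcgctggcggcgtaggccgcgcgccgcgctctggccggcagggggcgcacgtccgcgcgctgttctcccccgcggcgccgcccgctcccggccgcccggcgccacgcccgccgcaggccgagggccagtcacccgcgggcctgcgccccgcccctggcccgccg
This core was searched on both strands and was present in 12.4% of all 32851 promoters and in 10 of 69 promoters of the members (14.5%). The 10 genes were Gclm, Gstm5, Gstm7, Mgst1, Nfe2l2, Sod1, Txndc11, Txndc2, Txndc5 and Txnrd1. Promoters were at hand for 49 of the 57 members, and a match describes letters only. Cdo1, Gclc, Gsr, Gsta4, Hmox1, Sod3, Txnl1 and Txnl4a had no promoter at hand and were not searched.

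Among sensors and inducible enzymes, 0 of the 4 genes were called by limma in the 6 comparisons of centred values. Nfe2l2 read 2.73 and 3.50 in the arrays labelled Ets1/2 null, 2.74, 2.58 and 2.53 in Ets1 null cells, 2.98, 3.33 and 2.72 in Ets2 null cells and 2.96, 2.59 and 2.79 in wild type. All groups overlapped. Its second probe set gave -2.26 in Ets2 null against wild type, also without a call (adjusted p = 0.138). Keap1 read 0.43 and 0.53 in the arrays labelled Ets1/2 null, 0.79, 0.95 and 0.85 in Ets1 null cells, 0.96, 0.79 and 0.69 in Ets2 null cells and 0.92, 0.98 and 0.68 in wild type. The 2 double-null arrays were the lowest, by -0.38 ± 0.14 against wild type (adjusted p = 0.0784), and the second Keap1 probe set read -3.92 in both, with a difference of -3.24 (adjusted p = 0.000279). In wild type that second probe set read -0.04, 0.11 and -1.50. Keap1 was also called lower as deposited (-1.10), after quantile normalization (-0.44), as the mean of its probe sets (-1.85), with all 12 columns and without wild-type array 3 (-0.47).

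Nqo1, a quinone reductase and classical NRF2 target, read -0.77 and -0.50 in the arrays labelled Ets1/2 null, 0.82, -0.13 and -1.31 in Ets1 null cells, -0.88, -1.05 and -1.30 in Ets2 null cells and -0.80, -1.61 and -1.01 in wild type. Ets1 null array 1 was the highest and array 3 fell among the wild-type values, and the Ets1 null difference of 0.93 ± 0.46 was not called (adjusted p = 0.593). Both double-null arrays lay above every wild-type and Ets2 null array, with an uncalled difference from wild type of 0.51 ± 0.51 (adjusted p = 0.496). Hmox1, heme oxygenase 1, read 1.17 and 2.22 in the arrays labelled Ets1/2 null, -0.42, 1.15 and 0.38 in Ets1 null cells, 1.59, 0.98 and 0.80 in Ets2 null cells and 1.62, 0.80 and 0.20 in wild type. Every null group overlapped wild type, while the double-null arrays lay above Ets1 null, and the spread within wild type, 1.42, exceeded each difference of group means from wild type.

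**Figure D3:**
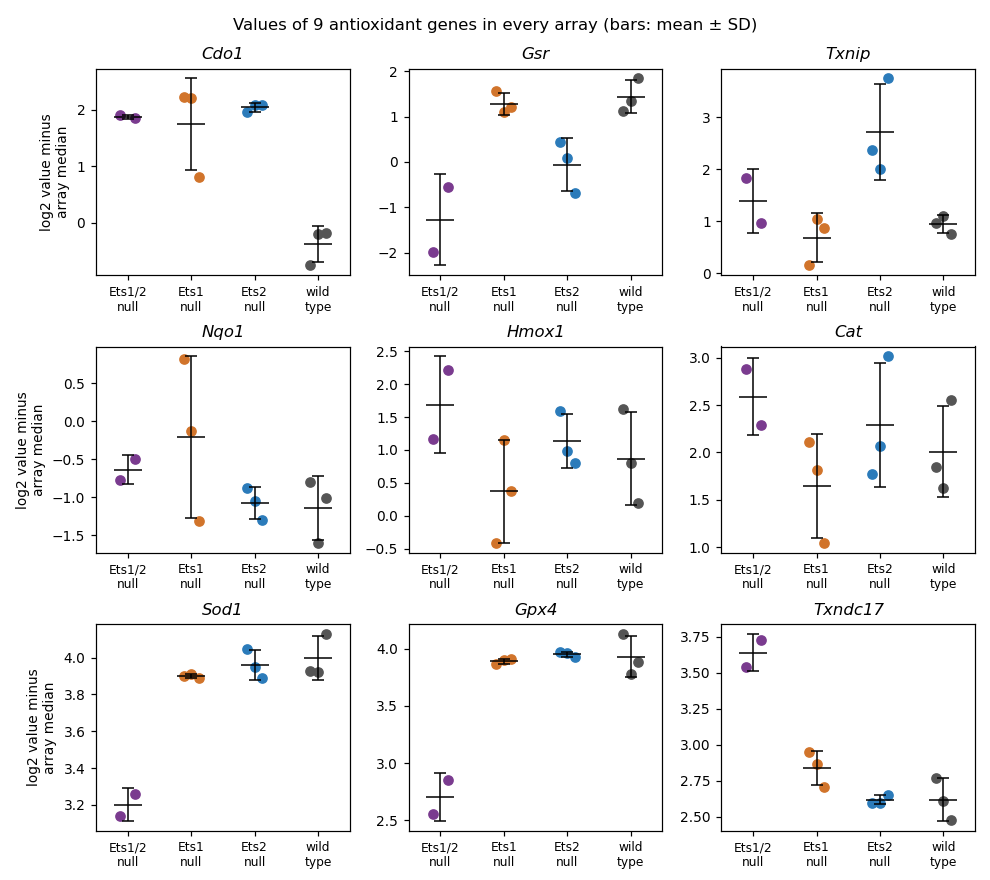
Values of 9 antioxidant genes in every array (points; log2 minus the array median, y axes differ between panels), with the group mean and SD as bars (n = 2 for Ets1/2 null, 3 for the other groups). All null arrays lie above wild type for Cdo1, Ets2 null lies below wild type for Gsr and above it for Txnip, and for Hmox1 and Cat every null group overlaps wild type.

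The dismutases and catalase act on superoxide and hydrogen peroxide. Sod1, the copper-zinc enzyme of the cytosol, read 3.14 and 3.26 in the arrays labelled Ets1/2 null, 3.90, 3.91 and 3.89 in Ets1 null cells, 4.05, 3.95 and 3.89 in Ets2 null cells and 3.93, 3.92 and 4.13 in wild type. The single nulls and wild type lay close together, and the 2 double-null arrays below them all. The fall from wild type was -0.79 ± 0.13 (adjusted p = 0.00262), but the second Sod1 probe set read 3.49 and 3.29 there and 3.36, 3.30 and 3.46 in wild type, with overlap. Sod2, the mitochondrial manganese enzyme, read 1.91 and 1.65 in the arrays labelled Ets1/2 null, 1.69, 1.58 and 1.68 in Ets1 null cells, 1.52, 1.33 and 1.85 in Ets2 null cells and 2.13, 1.90 and 2.17 in wild type. Every array of both single nulls lay below every wild-type array, by -0.42 ± 0.16 for the nulls of Ets1 and -0.50 ± 0.16 for those of Ets2, neither called (adjusted p = 0.535 and 0.155). The second Sod2 probe set gave -0.44 in each (adjusted p = 0.585 and 0.269). Weighting arrays by quality called Sod2 in Ets2 null, at -0.59 ± 0.12 (adjusted p = 0.0217).

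Sod3, the extracellular dismutase that binds to the vessel wall, read -0.74 and -0.54 in the arrays labelled Ets1/2 null, 1.02, -1.32 and -1.07 in Ets1 null cells, 0.57, -0.56 and 1.98 in Ets2 null cells and -1.07, 0.30 and 0.60 in wild type. Ets1 null array 1 and Ets2 null array 3 stood highest, and every null group overlapped wild type. The second Sod3 probe set read -4.28 and -4.22 in the arrays labelled Ets1/2 null and -1.66, -0.31 and -0.71 in wild type, a difference of -3.16 (adjusted p = 0.0117), against -0.58 in the brightest. Cat read 2.88 and 2.29 in the arrays labelled Ets1/2 null, 2.11, 1.81 and 1.04 in Ets1 null cells, 1.77, 2.07 and 3.02 in Ets2 null cells and 1.85, 1.63 and 2.55 in wild type. Every null group overlapped wild type, while the double-null arrays lay above Ets1 null. The second Cat probe set ran from 0.41 in Ets1 null array 3 to 2.40 in Ets2 null array 3.

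Of the 5 genes of the glutathione peroxidase family, whose enzymes reduce peroxides, only Gpx4 was called in a comparison. Gpx4, which acts on lipid hydroperoxides in membranes and is the enzyme that holds back ferroptosis, read 2.55 and 2.85 in the arrays labelled Ets1/2 null, 3.87, 3.90 and 3.91 in Ets1 null cells, 3.97, 3.96 and 3.93 in Ets2 null cells and 4.13, 3.78 and 3.88 in wild type. The single nulls varied little, and the 2 double-null arrays lay far below all others. The fall from wild type was -1.23 ± 0.15 (adjusted p = 0.000812), but the second Gpx4 probe set read 3.44 and 3.57 there, within the wild-type span of 3.43 to 3.78. Gpx1, the abundant cytosolic peroxidase, read 3.86 and 3.71 in the arrays labelled Ets1/2 null, 3.94, 3.56 and 3.15 in Ets1 null cells, 3.78, 3.82 and 3.69 in Ets2 null cells and 4.26, 3.99 and 3.82 in wild type. It was not called, with an Ets1 null difference from wild type of -0.48 ± 0.20 (adjusted p = 0.564), and every null group overlapped or met the wild-type values.

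Gpx3, Gpx7 and Gpx8 were not called either. Gpx7, of the endoplasmic reticulum, had the widest span of any member in a group: it read 1.02, 0.39 and -2.85 in wild type. Its Ets2 null values of 0.50, 1.29 and 1.25 gave a difference of 1.49 ± 0.84 (adjusted p = 0.365), and wild-type array 3 stood far below every other array.

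The 16 glutathione transferases conjugate glutathione to electrophiles, and those of the mu class lie together on chromosome 3. Transcripts of this class are similar in sequence, so their probe sets may share signal. In the single nulls 0 of the 16 were called by limma, with differences from -1.20 to 1.32 for Ets1 null cells and from -1.73 to 1.55 for Ets2 null cells. Mgst2, a microsomal transferase that also makes leukotriene C4, read -1.34 and -1.30 in the arrays labelled Ets1/2 null, -1.93, 0.92 and -0.20 in Ets1 null cells, -3.04, -3.01 and -3.03 in Ets2 null cells and -1.73, -2.14 and -0.02 in wild type. The 3 Ets2 null arrays were the lowest of all and, as deposited, below 6.5, where the wild-type arrays averaged 8.14. Their difference from wild type of -1.73 ± 0.70 was not called (adjusted p = 0.231).

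Gsta4, which clears the lipid peroxidation product 4-hydroxynonenal, read 0.48 and 0.73 in the arrays labelled Ets1/2 null, 0.32, 1.46 and 0.60 in Ets1 null cells, 0.99, 0.17 and 1.89 in Ets2 null cells and -1.81, -1.81 and 2.03 in wild type. Wild-type arrays 1 and 2 lay far below every null array and wild-type array 3 above them all, and neither single null was called (adjusted p = 0.70 and 0.401). Gsto1, an omega transferase that reduces dehydroascorbate, read 2.87, 1.97 and 1.62 in Ets2 null cells and 3.31, 3.32 and 2.71 in wild type. The groups overlapped slightly, and the difference was -0.96 ± 0.40 (adjusted p = 0.244), with -0.99 in its second probe set. Gstz1 and Gstt3 had differences in Ets2 null of 0.61 ± 0.19 and 1.23 ± 0.54 (adjusted p = 0.144 and 0.261).

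In the arrays labelled Ets1/2 null 2 of the 16 transferases fell from wild type, near the 12% of all genes called lower. Mgst3, which also reduces lipid peroxides, read 1.04 and 1.99 in the arrays labelled Ets1/2 null, 4.16, 2.98 and 2.42 in Ets1 null cells, 3.58, 3.33 and 3.91 in Ets2 null cells and 3.62, 3.14 and 3.59 in wild type. The 2 double-null arrays were the lowest, at -1.94 ± 0.48 from wild type (adjusted p = 0.0159), and Mgst3 has 1 probe set. Without array 1 labelled Ets1/2 null the difference was -1.46 with an adjusted p of 0.106. Gstm3 read -2.06 and -1.98 in the arrays labelled Ets1/2 null, -1.28, -1.43 and -1.60 in Ets1 null cells, -1.42, -1.54 and -1.23 in Ets2 null cells and -1.27, -1.28 and -1.31 in wild type. It was dim throughout, and the fall of -0.74 ± 0.14 (adjusted p = 0.00627) was called under every alternative tried.

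The promoter of Mgst3 is shown, with that of Txndc17 below, because both genes were called in these arrays and hold CCGGAA, a core sequence that ETS factors recognise. It lies at chr1:167393792-167394091 on the minus strand (RefSeq, GRCm38.p6), and capitals mark the match, 131 bases before the start of the gene.
Mgst3 promoter: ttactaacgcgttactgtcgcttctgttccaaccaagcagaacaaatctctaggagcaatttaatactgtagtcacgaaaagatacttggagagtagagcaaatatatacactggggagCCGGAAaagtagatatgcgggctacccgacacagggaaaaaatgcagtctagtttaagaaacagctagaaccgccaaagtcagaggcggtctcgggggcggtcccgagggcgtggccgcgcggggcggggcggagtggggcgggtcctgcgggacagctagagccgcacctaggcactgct
CCGGAA was searched on both strands and was present in 14.9% of all 32851 promoters and in 16 of 69 member promoters (23.2%), those of 15 genes. The other genes with a match were Glrx2, Gpx8, Gstm4, Gsto2, Gstz1, Mgst1, Nfe2l2, Sod2, Txn2, Txndc5, Txndc9, Txnip and Txnl4b beside Mgst3 and Txndc17. No test was made of this share, and members without a promoter at hand, Cdo1 among them, were not searched.

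Peroxiredoxins and glutaredoxins reduce peroxides and mixed disulfides, and 0 of these 6 genes were called in a single null by limma. Prdx4, the peroxiredoxin of the endoplasmic reticulum, read 3.84 and 4.48 in the arrays labelled Ets1/2 null, 3.52, 3.52 and 3.48 in Ets1 null cells, 3.41, 3.60 and 3.59 in Ets2 null cells and 3.65, 3.41 and 3.47 in wild type. The 2 double-null arrays were the highest, and the rise of 0.66 ± 0.19 over wild type (adjusted p = 0.0294) became -0.06 in the deposited values and 0.04 in the second probe set. Prdx3, of mitochondria, read 1.19, 1.21 and 1.44 in Ets2 null cells and 1.56, 1.58 and 1.85 in wild type. The groups did not overlap, and the difference of -0.38 ± 0.13 was not called (adjusted p = 0.17), though it was with arrays weighted by quality (adjusted p = 0.0307).

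Glrx, the cytosolic glutaredoxin, read 2.43 and 3.21 in the arrays labelled Ets1/2 null, 1.25, 1.45 and 1.41 in Ets1 null cells, 1.47, 1.65 and 1.20 in Ets2 null cells and 2.10, 2.65 and 1.0 in wild type. The single nulls lay among the wild-type values, whose own span was 1.65, and the double-null arrays lay above both single nulls. Against Ets1 null Glrx rose by 1.45 ± 0.42 (adjusted p = 0.0312), whereas its second probe set gave -1.44. Glrx2, the mitochondrial form, read 2.09, 2.33 and 1.66 in Ets2 null cells and 1.84, 1.30 and 0.66 in wild type. The groups overlapped, and the difference of 0.76 ± 0.31 was not called (adjusted p = 0.231); weighted by quality it was 0.80 (adjusted p = 0.0489).

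The thioredoxin system passes electrons from NADPH through thioredoxin reductases (Txnrd) to thioredoxins, which Txnip inhibits. None of its 6 genes, read from the brightest probe set, was called by limma in the 6 comparisons of centred values. Txnip, which also restrains glucose uptake, read 1.83 and 0.96 in the arrays labelled Ets1/2 null, 0.15, 1.04 and 0.86 in Ets1 null cells, 2.36, 2.0 and 3.75 in Ets2 null cells and 0.97, 1.09 and 0.75 in wild type. Every Ets2 null array lay above every wild-type array, with array 3 highest. The difference of 1.77 ± 0.44 was not called (adjusted p = 0.0992), and the second probe set gave 1.98 (adjusted p = 0.0741). Without Ets2 null array 3 it was 1.25 (adjusted p = 0.174), and with arrays weighted by quality it was called at 1.19 ± 0.30 (adjusted p = 0.0374). Its second probe set was lower in the arrays labelled Ets1/2 null than in wild type, by -1.57 (adjusted p = 0.0465), and the brightest had an uncalled 0.46.

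Txn1, cytosolic thioredoxin, read 4.63 and 4.62 in the arrays labelled Ets1/2 null, 4.29, 4.38 and 4.29 in Ets1 null cells, 4.45, 4.48 and 3.58 in Ets2 null cells and 4.48, 4.38 and 4.50 in wild type. Its values were tight in all groups but Ets2 null, where array 3 was the lowest of all. Txnrd1, the cytosolic reductase and another NRF2 target, read 2.38 and 1.84 in the arrays labelled Ets1/2 null, 1.90, 2.27 and 2.50 in Ets1 null cells, 2.50, 2.29 and 1.52 in Ets2 null cells and 2.66, 2.40 and 2.52 in wild type. Here too Ets2 null array 3 was lowest, and both single nulls overlapped wild type. The second Txnrd1 probe set read -1.70 and -2.17 in the arrays labelled Ets1/2 null and 0.73, 0.54 and -0.33 in wild type. Its difference there was called, at -2.05 (adjusted p = 0.0033). Txnrd1 was also called lower than wild type as the mean of its probe sets (-1.27, adjusted p = 0.0242) and as deposited (-1.14, adjusted p = 0.0131).

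The 11 thioredoxin-domain and thioredoxin-like genes held 5 of the 7 rises in the arrays labelled Ets1/2 null against wild type, where 16.4% of all genes were called higher; whether the class stands apart was not tested. Their median difference there was 0.56, beside 0.11 for all genes, and 0 were called lower. As deposited, none of these 5 was called higher. In the single nulls 0 of the 11 were called by limma, with medians of 0.13 for Ets1 null cells and 0.00 for Ets2 null cells. Txndc17, a cytosolic thioredoxin-related protein that reduces cystine, read 3.54 and 3.73 in the arrays labelled Ets1/2 null, 2.95, 2.87 and 2.71 in Ets1 null cells, 2.60, 2.60 and 2.65 in Ets2 null cells and 2.77, 2.61 and 2.48 in wild type. The 2 double-null arrays were the highest, and the other groups differed little. The rise over wild type was 1.02 ± 0.14 (adjusted p = 0.00155), and it was called in the second probe set (0.52, adjusted p = 0.0365) but not in the deposited values (0.30, adjusted p = 0.0812).

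The Txndc17 promoter, chr11:72207304-72207603, plus strand (RefSeq, GRCm38.p6), holds CCGGAA 21 bases before the start of the gene, shown in capitals.
Txndc17 promoter: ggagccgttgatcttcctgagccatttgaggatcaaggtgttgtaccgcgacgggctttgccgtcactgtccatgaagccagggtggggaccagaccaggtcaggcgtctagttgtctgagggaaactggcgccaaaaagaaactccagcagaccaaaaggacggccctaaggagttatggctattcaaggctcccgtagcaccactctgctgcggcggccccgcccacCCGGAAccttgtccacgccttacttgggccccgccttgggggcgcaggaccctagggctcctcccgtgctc
This match is nearer to the start of its gene than that of Mgst3, and the genes were called in opposite directions.

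Of the other genes in this class, Txndc12, Txndc15 and Txndc16 have thioredoxin domains, and Txndc12 works in the endoplasmic reticulum. Txndc16 read 0.14 and -0.42 in the arrays labelled Ets1/2 null, -1.61, -1.31 and -1.43 in Ets1 null cells, -0.97, -0.76 and -0.48 in Ets2 null cells and -0.94, -1.19 and -2.08 in wild type. The double-null arrays were the highest, with a rise of 1.26 ± 0.33 over wild type (adjusted p = 0.0198), while the Ets2 null difference of 0.66 ± 0.29 was not called (adjusted p = 0.26). Txndc15 read 2.16 and 2.43 in the arrays labelled Ets1/2 null, 1.75, 1.73 and 1.52 in Ets1 null cells, 1.13, 1.32 and 1.96 in Ets2 null cells and 1.56, 1.63 and 1.22 in wild type. It rose by 0.83 ± 0.25 over wild type (adjusted p = 0.0348), with no overlap between the double-null and wild-type arrays. This call was lost in 12 of 19 alternatives, among them leaving out any 1 wild-type or double-null array or Ets1 null array 2. Txndc12 read 2.58 and 2.26 in the arrays labelled Ets1/2 null, 1.21, 1.50 and 1.85 in Ets1 null cells, 1.90, 2.01 and 2.06 in Ets2 null cells and 1.73, 1.74 and 2.11 in wild type. It rose over Ets1 null by 0.90 ± 0.21 (adjusted p = 0.0132) and was not called over wild type (adjusted p = 0.0744).

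Txnl1, a thioredoxin-like protein bound to the proteasome, read 3.46 and 3.49 in the arrays labelled Ets1/2 null, 3.18, 3.0 and 2.93 in Ets1 null cells, 3.0, 3.02 and 2.71 in Ets2 null cells and 3.05, 2.95 and 2.86 in wild type. The double-null arrays were the highest, with a rise of 0.52 ± 0.15 over wild type (adjusted p = 0.0277) that became -0.20 in the deposited values. Txndc2, a sperm thioredoxin, read -2.60 and -0.29 in the arrays labelled Ets1/2 null, -2.17, -3.12 and -2.76 in Ets1 null cells, -3.14, -3.09 and -3.27 in Ets2 null cells and -3.01, -3.23 and -3.11 in wild type. Array 2 labelled Ets1/2 null stood alone, and without it the difference from wild type of 1.68 ± 0.55 (adjusted p = 0.0481) was 0.52. The call was lost in 15 of 18 alternatives, among them leaving out any 1 wild-type, Ets1 null or Ets2 null array. Txnl4b, a relative of a splicing factor, read -1.97 and -1.97 in the arrays labelled Ets1/2 null, -1.15, -1.06 and -1.11 in Ets1 null cells, -1.34, -1.21 and -1.06 in Ets2 null cells and -1.17, -1.34 and -1.78 in wild type. It was lowest in the double-null arrays, by -0.87 ± 0.18 from Ets1 null (adjusted p = 0.00878), a call made in every alternative.

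**Figure D4:**
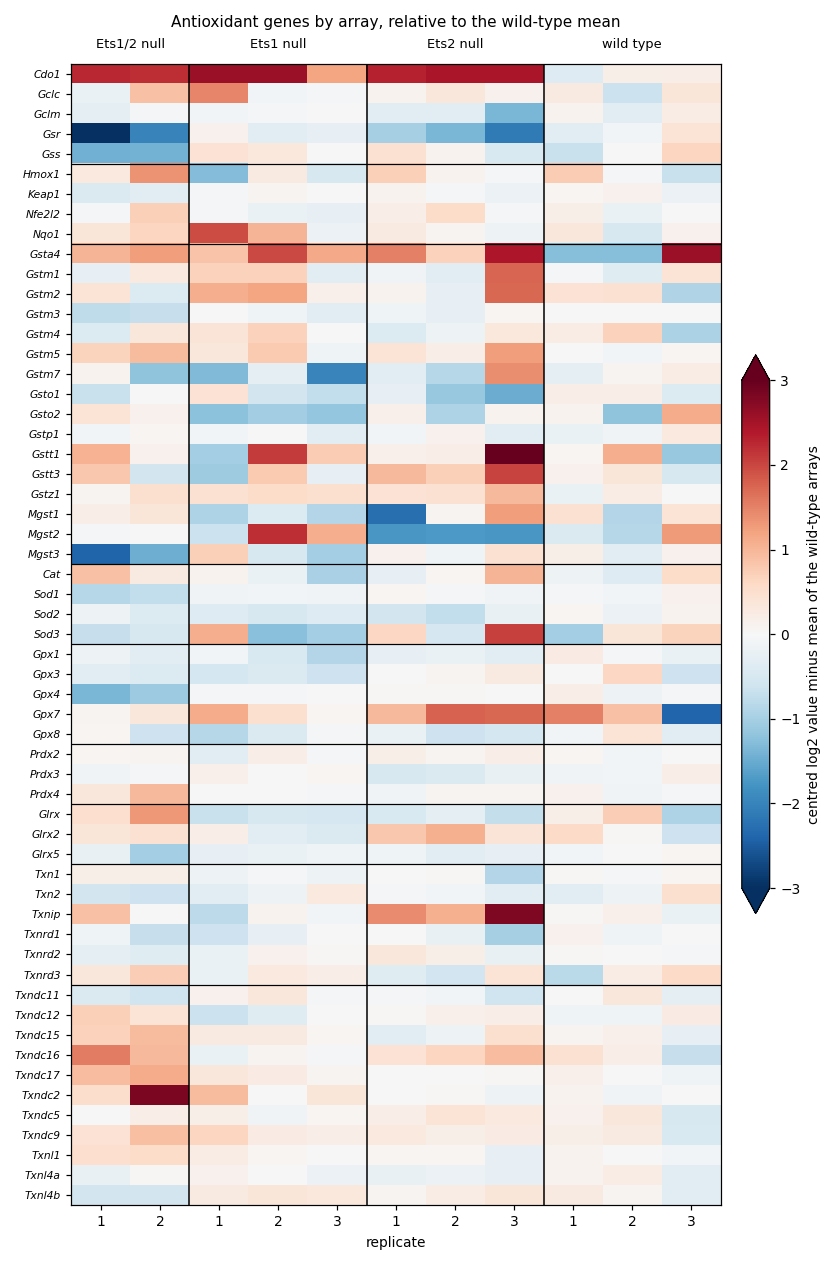
Log2 values of the 57 genes (rows, grouped by role) in the 11 arrays (columns), relative to the mean of the wild-type arrays; red is higher and blue lower, and colours end at 3 in either direction. Cdo1 is red in all null arrays, Ets2 null array 3 is red for several transferases, and wild-type array 3 is blue for Gpx7 and red for Gsta4.

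Among arrays of 1 group the members had a larger median span than all genes in the 3 groups of 3 arrays; this was not tested. The median span within a group was 0.51 for Ets1 null (0.35 for all genes), 0.54 for Ets2 null (0.42) and 0.61 for wild type (0.45). In the arrays labelled Ets1/2 null, of which there are 2, it was 0.27 (0.33). Ets2 null array 3 lay more than 1 from both other arrays of its group in 9 members, or 15.8%, beside 8.85% of all genes. In 8 of these it was the higher, namely Gstm1, Gstm2, Gstm7, Gstt1, Gstt3, Mgst1, Sod3 and Txnip, and in Gclm it was the lower. Gstm1 read 3.55 there, against 1.71 and 1.48 in the other Ets2 null arrays. Wild-type array 3 stood apart in 8 members (14.0%, beside 6.86% of all genes), higher in Gsta4, Gsto2 and Mgst2 and lower in Glrx, Gpx7, Gstm2, Gstm4 and Gstt1. These 2 arrays had the lowest quality weights in limma, 0.297 and 0.32.

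The other genes of the pathway were read from lists chosen by known function. Of 24 NRF2 partners and targets among the genes analysed, 1 was called in Ets2 null cells and 0 in Ets1 null by limma. Maff, a small Maf protein that pairs with NRF2, read 1.27 and 2.17 in the arrays labelled Ets1/2 null, -0.01, -0.30 and -0.29 in Ets1 null cells, -1.90, -1.63 and -1.46 in Ets2 null cells and 0.31, 0.19 and 0.12 in wild type. The 4 groups did not overlap. Maff fell by 1.87 ± 0.23 in Ets2 null (adjusted p = 0.023) and rose by 1.51 ± 0.25 in the arrays labelled Ets1/2 null (adjusted p = 0.00326), each against wild type, and the interaction was 3.79 ± 0.34 (adjusted p = 0.000736). In the arrays labelled Ets1/2 null, 3 of the 24 rose and 3 fell from wild type, beside 16.4% of all genes higher and 12% lower. Among the falls was Srxn1, the sulfiredoxin that repairs overoxidised peroxiredoxins, at -1.56 ± 0.32 (adjusted p = 0.00716).

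Of 19 genes of glutathione supply, breakdown and export, 12 of NADPH supply, 19 of methionine repair, thiol and metal protection and 7 sources of superoxide, limma called 0 in either single null. Against wild type the arrays labelled Ets1/2 null had 2 higher and 2 lower in the first list, 1 and 3 in the second, 2 and 3 in the third and 2 and 0 in the fourth, beside the same shares of all genes. Over these 5 lists 10 genes were called higher, of which 1, Maff, was called higher as deposited too, and 11 lower, all 11 also as deposited. The deposited level of these arrays is lower, so the falls kept there gain no support from it. Pgls, of the pentose phosphate route that makes NADPH, read 0.65 and 1.0 in the arrays labelled Ets1/2 null, 2.49, 2.78 and 2.63 in Ets1 null cells, 2.60, 2.36 and 2.48 in Ets2 null cells and 2.48, 2.37 and 2.23 in wild type. The double-null arrays were far below all others, with a fall of -1.53 ± 0.16 from wild type (adjusted p = 0.00051). Ccs, the copper chaperone that loads Sod1, read -0.08 and 0.39 in the arrays labelled Ets1/2 null, 1.21, 1.28 and 1.13 in Ets1 null cells, 1.42, 1.30 and 1.75 in Ets2 null cells and 1.0, 1.12 and 0.81 in wild type. It too was lowest in the double-null arrays, at -0.82 ± 0.19 from wild type (adjusted p = 0.0126). The metallothionein gene Mt1 read 5.12 and 5.35 in the arrays labelled Ets1/2 null, 2.74, 4.44 and 3.60 in Ets1 null cells, 1.70, 2.43 and 1.80 in Ets2 null cells and 4.17, 4.02 and 3.99 in wild type. Its Ets2 null values were the lowest and its double-null values the highest, and the double-null arrays exceeded Ets2 null by 3.26 ± 0.42 (adjusted p = 0.000938).

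Markers of other cell types were read beside these results. In Ets2 null against wild type limma called 0 of 5 endothelial, 0 of 7 smooth muscle, 0 of 8 fibroblast and 0 of 5 leukocyte markers. The mean of the fibroblast markers lay between 0.72 and 1.29 in the arrays labelled Ets1/2 null, -0.21 and 0.42 in Ets1 null cells, 0.09 and 1.42 in Ets2 null cells and 0.50 and 1.04 in wild type. The leukocyte mean lay between -2.06 and -1.77 in the arrays labelled Ets1/2 null, -2.03 and -1.84 in Ets1 null cells, -2.68 and -2.30 in Ets2 null cells and -2.23 and -1.74 in wild type, and the smooth muscle means of all groups fell between -0.41 and 0.97. These means hide opposite differences of Ets2 null from wild type, 4.95 ± 1.42 for Rgs5 and -2.66 ± 0.90 for Acta2. Neither overlapped wild type and neither was called (adjusted p = 0.128 and 0.172). The median of the 7 smooth muscle markers there was -0.01. Col1a1, a collagen gene of fibroblasts, read 4.58 and 3.96 in the arrays labelled Ets1/2 null, 3.72, 3.11 and 2.94 in Ets1 null cells, 0.99, -0.23 and 1.77 in Ets2 null cells and 2.65, 3.91 and 2.43 in wild type. Its Ets2 null arrays lay below all others (adjusted p = 0.0985 against wild type). Fibroblast markers did not move together there: Dpt was at 2.24 ± 0.59 and Pdgfra at 0.93 ± 0.58 from wild type, neither called (adjusted p = 0.11 and 0.416). In the arrays labelled Ets1/2 null, 2 of the 5 leukocyte markers, Csf1r and Cd3e, were called higher than in wild type, each by 0.67. As deposited both were at -0.05 and not called, and Cd68, Cd14 and Lyz2 had centred differences of -0.43, -0.44 and -0.06. Against Ets2 null, the double-null arrays had called differences in Eng (-2.26), Acta2 (3.71), Col1a1 (3.43), Col1a2 (2.27) and Dpt (-4.16). Csf1r (0.67) and Cd3e (0.86) were called there too, beside 30.3% of all genes. The 2 double-null arrays were far apart in some markers, at 5.31 and 1.82 for Acta2, 2.31 and -2.30 for Tagln and 0.97 and -3.03 for Cd34. In others they were close, at -1.30 in both for Eng and 5.64 and 5.38 for Col1a2. The part of these cell types in the values of Cdo1, Gsr and Txnip was not tested.

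The interaction asked whether the difference seen in cells labelled as lacking Ets2 changes in cells without Ets1. With Ets1 present, that difference also holds the floxed alleles and sex, which cannot be told apart from Ets2 loss. The interaction was called in 6 of the 57 members, beside 14.5% of all genes. Txndc17 was above 0 (7.54% of all genes were called above 0), and Cdo1, Gpx4, Gss, Sod1 and Txnl4b were below (6.94%). In the deposited values 15 were called, all below 0, beside 31.6% of all genes. Gpx4 was called in all 11 fits that leave out 1 array, with differences of -1.37 to -1.07, and each of the other 5 in 2 to 9 of them. In Gpx4, Gss and Sod1 the second probe set gave the opposite sign, at 0.22, 0.40 and 0.38.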

How the data were processed

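RNA of 4 groups of cultured mouse aortic endothelial cells was measured on Affymetrix arrays. The deposited values are log2 intensities, 1 per probe set, made by the authors with RMA per the submitters' processing notes; the sources used here do not give its version, any filter, or whether the arrays were normalised as 1 set. Of 20523 probe sets, 18824 carried 1 gene symbol, and each of 11015 genes was read from its brightest probe set by mean value. Replicate 3 labelled Ets1/2 null held, in 20521 probe sets, the average of replicates 1 and 2 to within 1e-06, and was left out, so 11 arrays were fitted with 7 residual degrees of freedom. The number of arrays limits the precision.

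The median over genes was subtracted from each array. Group means were fitted with limma 3.58.1 under R 4.3.3 (lmFit, contrasts, eBayes, two-sided) over the whole table, after the code was tested on simulated data. Calls had a Benjamini-Hochberg adjusted p under 0.05. pandas 2.3.3 and matplotlib 3.10.9 made tables and plots. The members, lists and tests were chosen with earlier results of these data known. Genes are named with values in every array if called, up to 10 per comparison, or if among 19 core genes (Prdx1 of these has no probe set of its own); list genes only if called, at most 6 per list. Gsto1, Prdx3, Glrx2, Gpx7, Gsta4, Mgst2, Gstz1, Gstt3, Gstm1 and the single marker genes were named after their values were seen, and the first 4 are given for Ets2 null and wild type only. Alternatives were the deposited values, quantile normalization, the mean or the second brightest probe set, a filter at a mean above 7, the compared arrays only, all 12 columns, array weights, the replicate number as a block, a term for male arrays (Eif2s3y above 6 as deposited), and leaving out each array. Sequences are RefSeq's (GRCm38.p6).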

Additional observations from a re-analysis of the deposited data

Results flagged for a closer look

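For 6 genes limma called the interaction. It subtracts the difference of Ets2 null from wild type from that of the arrays labelled Ets1/2 null from Ets1 null. The difference of Ets2 null from wild type also holds the floxed alleles and sex. These cannot be told apart from Ets2 loss. The interaction was -2.29 for Cdo1, -1.22 for Gpx4, -1.71 for Gss, -0.67 for Sod1, 0.79 for Txndc17 and -1.10 for Txnl4b (log2). Each rests on the 2 arrays labelled Ets1/2 null. In the deposited values, 5 of the 6 were called and Txndc17 was not. Those 5 lie below 0, the direction in which the lower deposited level of these arrays moves the values. In Gpx4, Gss and Sod1 the second probe set gave the opposite sign, at 0.22, 0.40 and 0.38.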

How the results depend on the processing

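With the deposited values the calls numbered 24 for the arrays labelled Ets1/2 null against wild type, 21 against Ets1 null, 22 against Ets2 null and 15 for the interaction; that scaling keeps the lower level of these arrays. Fitting only the compared arrays gave 0 calls in Ets2 null and 7 in the arrays labelled Ets1/2 null, each against wild type. Array weights gave 1 in Ets1 null and 6 in Ets2 null. The term for male arrays gave 0 in Ets2 null against wild type and 2 in the arrays labelled Ets1/2 null against Ets2 null, where quantile normalization gave 7. All 12 columns gave 10 for the interaction. The second brightest probe set, an alternative chosen after seeing the data, gave 0 of 27 in Ets2 null (Cdo1 has 1 probe set). The cause of these shifts was not tested. Same-numbered arrays had deviations correlated at -0.32 to 0.10 (median -0.06), and arrays of different number at -0.22 to 0.32 (median 0.01). This gave no sign of pairing by number, but with so few arrays per group it cannot exclude it. The replicate block gave 0 calls in Ets1 null and 0 in Ets2 null, 9 in the arrays labelled Ets1/2 null against wild type, 12 against Ets1 null, 9 against Ets2 null and 3 for the interaction. Leaving out 1 array gave 0 to 1 call for Ets1 null, likewise 0 to 1 for Ets2 null, 8 to 14 in the arrays labelled Ets1/2 null against wild type, 8 to 15 against Ets1 null, 6 to 12 against Ets2 null and 1 to 8 for the interaction. A sign was counted as turned only where at least 1 of the 2 fits made a call, so the single nulls, with few calls, could hardly be counted. There the second probe set had the sign of the brightest in 22 of 27 members for Ets1 null and 19 for Ets2 null, each against wild type. Signs were compared for called differences and, against wild type, also for the core genes. All signs that turned among these did so in the arrays labelled Ets1/2 null. In the second probe set, against wild type, Gpx4 had 0.07, Gsr 0.51, Gss 0.66, Sod1 0.21 and Txnip -1.57; against Ets1 null Glrx had -1.44, Gpx4 0.21, Gsr 0.67, Gss 0.50 and Sod1 0.36; against Ets2 null Glrx had -1.61, Gpx4 0.08, Gss 0.56 and Sod1 0.23; in the interaction Gpx4 had 0.22, Gss 0.40 and Sod1 0.38. The mean of probe sets gave Glrx -0.04 against Ets1 null and -0.13 against Ets2 null. The deposited values gave Prdx4 -0.06, -0.10 and -0.08 against wild type, Ets1 null and Ets2 null, and Txnl1 -0.20 against wild type and -0.14 against Ets2 null. Uncalled differences left out of this check could turn too. In the arrays labelled Ets1/2 null the second Glrx probe set gave -1.96 against wild type (limma, adjusted p = 0.016), beside 0.90 in the brightest. For the interaction the second probe set gave 2.23 for Gsr (adjusted p = 0.0276) and -1.91 for Txnrd1 (adjusted p = 0.0296). Their brightest probe sets gave -1.05 and 0.31. The dimmest members (Gpx3, Gstm4, Gstm7, Gsto2, Mgst2, Txndc2) had deposited values below 6.5 in some arrays, where signal over background limits what can be read.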
